A study of Mus musculus with 16 samples.

Results

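The 9 genes described here, Gvin1, Gbp2, Gbp3, Gbp7, Irgm1, Igtp, Ifit1, Ifit3 and Bst2, form a list of interferon-inducible genes, matched by symbol to the Ensembl identifiers of the table. All 9 were listed, out of 18424 genes. Gvin1 was selected on its measured difference between HT-Veh and WT-Veh mice, where it was among the top genes, so values of that comparison are given as a description without a test. RNA was sequenced from the medial prefrontal cortex of 16 male C57BL/6N mice at postnatal day 120. Wild-type mice (WT) were compared with heterozygotes (HT) in which exon 5 of 1 Arid1b allele carried a mutation that truncates the protein, a component of SWI/SNF chromatin remodelers. Their dams drank water with saccharin (0.2%) alone as vehicle (Veh) or with fluoxetine (Flx), a selective serotonin reuptake inhibitor, at 0.1 mg/ml from postnatal day 3 to 21. The pups were therefore dosed through milk, and all mice had been drinking normal water since weaning. Each of the 4 combinations of genotype and treatment held 4 mice. The HT mice came from a single CRISPR/Cas9 allele, were crossed to WT mice of the same strain and carried the mutation in every cell. The sample labels did not give the litter, and since the drug was given to the dam, litter and treatment cannot be told apart.

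Interferons are secreted signalling proteins, of which the type I interferons are released by cells after sensing viral or bacterial nucleic acid. Type I interferons act through the receptor Ifnar1/Ifnar2 and interferon gamma acts through Ifngr1/Ifngr2. Both use JAK kinases to activate STAT transcription factors, which bind the interferon-stimulated response element (ISRE) or the gamma-activated sequence (GAS) in the promoters of responding genes. In brain, microglia, endothelial cells, astrocytes and neurons can all respond, and a low tonic level of the response is present without infection. Members of the guanylate-binding protein family (Gbp2, Gbp3 and Gbp7), the immunity-related GTPases (Irgm1 and Igtp, the latter also known as Irgm3) and the very large inducible GTPase Gvin1 are GTPases induced by interferon. The first 2 families attack the vacuoles of intracellular pathogens, and Irgm1 and Igtp regulate the other immunity-related GTPases. Ifit1 and Ifit3 belong to a family that binds foreign RNA, and Bst2 (tetherin) holds budding virus particles at the cell membrane.

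The promoters of these genes hold the letters of an interferon response element. RefSeq (GRCm38.p6) promoter windows, from 250 bases before to 50 bases after the annotated start, were found for 8 of the 9 genes. There was no entry for Gvin1. Both strands were searched for the ISRE core GAAANNGAAA, where N is any base. It was found in all 8 genes (8 of their 9 windows), compared with 1079 of 27025 genes (3.99%) and 1131 of 32851 windows (3.44%) over all genes. Windows of 6 genes are printed on the strand of the gene with the matches in capitals, chosen so that each family is represented and the spacing of single and double elements can be compared. A match on the opposite strand reads as the reverse complement.
Gbp2, chr3:142620413-142620712, plus strand: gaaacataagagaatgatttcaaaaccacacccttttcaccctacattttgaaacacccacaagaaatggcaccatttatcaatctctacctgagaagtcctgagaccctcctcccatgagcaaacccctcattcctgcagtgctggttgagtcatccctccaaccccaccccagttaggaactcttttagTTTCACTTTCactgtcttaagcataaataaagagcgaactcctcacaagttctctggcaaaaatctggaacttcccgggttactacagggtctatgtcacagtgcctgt
Irgm1, chr11:48871371-48871670, minus strand: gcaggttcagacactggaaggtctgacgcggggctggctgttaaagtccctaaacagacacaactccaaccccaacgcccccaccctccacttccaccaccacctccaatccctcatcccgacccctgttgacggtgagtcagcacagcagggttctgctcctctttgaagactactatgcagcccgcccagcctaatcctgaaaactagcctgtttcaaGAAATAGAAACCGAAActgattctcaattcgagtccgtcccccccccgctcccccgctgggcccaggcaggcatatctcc
Igtp, chr11:58199306-58199605, plus strand: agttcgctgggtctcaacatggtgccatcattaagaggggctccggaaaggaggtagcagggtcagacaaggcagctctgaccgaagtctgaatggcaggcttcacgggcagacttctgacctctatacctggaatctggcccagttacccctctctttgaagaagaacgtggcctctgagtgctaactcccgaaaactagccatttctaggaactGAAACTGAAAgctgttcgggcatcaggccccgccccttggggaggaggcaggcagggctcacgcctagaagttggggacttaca
Ifit1, chr19:34640639-34640938, plus strand: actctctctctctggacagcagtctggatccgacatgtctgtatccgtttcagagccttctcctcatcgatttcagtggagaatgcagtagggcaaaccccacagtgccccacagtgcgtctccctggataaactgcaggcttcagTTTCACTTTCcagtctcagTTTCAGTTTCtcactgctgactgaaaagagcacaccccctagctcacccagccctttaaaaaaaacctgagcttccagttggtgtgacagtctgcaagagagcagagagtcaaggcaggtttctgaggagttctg
Ifit3, chr19:34583279-34583578, plus strand: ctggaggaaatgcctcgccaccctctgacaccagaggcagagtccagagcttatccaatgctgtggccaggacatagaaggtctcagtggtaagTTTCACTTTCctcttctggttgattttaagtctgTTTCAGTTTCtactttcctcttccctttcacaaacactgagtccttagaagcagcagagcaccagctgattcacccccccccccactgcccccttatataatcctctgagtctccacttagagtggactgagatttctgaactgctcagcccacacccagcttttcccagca
Bst2, chr8:71537423-71537722, minus strand: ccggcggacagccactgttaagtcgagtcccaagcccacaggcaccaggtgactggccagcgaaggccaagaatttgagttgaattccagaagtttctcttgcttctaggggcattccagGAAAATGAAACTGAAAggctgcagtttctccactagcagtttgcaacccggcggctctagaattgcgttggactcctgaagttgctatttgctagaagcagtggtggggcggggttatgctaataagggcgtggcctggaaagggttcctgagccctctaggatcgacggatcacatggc

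The GTPase genes held the element close to the start. Matches began 59 bases upstream in Gbp2, 53 in Gbp7, 34 in Igtp, 30 and 24 in Irgm1, and 45 and 39 in Gbp3. The antiviral genes held it farther away, at 104 and 85 bases in Ifit1, 156 and 122 in Ifit3, and 130 and 124 in Bst2. In Gbp3, Irgm1 and Bst2 the 2 matches overlap in a run of 3 GAAA repeats, whereas those of Ifit1 and Ifit3 are apart. Gbp3 had a second annotated start without a match. The GAS letters TTCNNNGAA, which read the same on both strands, were found in 3 of the 8 genes, Gbp7 (2 matches), Igtp and Bst2. The share over all genes was 9.55%, and over all windows 8.30%. These matches are letters in a window and say nothing of binding.

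**Figure D1:**
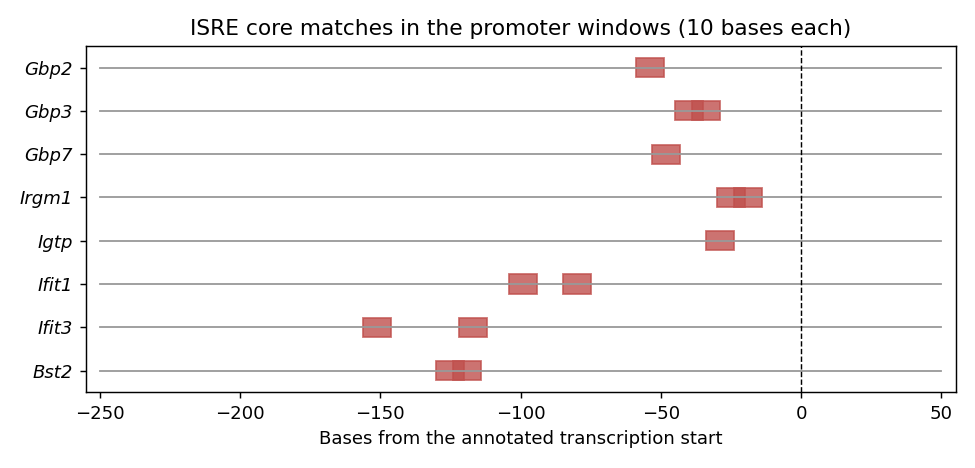
Positions of the ISRE core letters in the promoter windows of 8 genes, in bases from the annotated transcription start (dashed line). Each box covers the 10 bases of 1 match, and the boxes of Gbp2, Gbp3, Gbp7, Irgm1 and Igtp lie within 59 bases of the start, whereas those of Ifit1, Ifit3 and Bst2 begin 85 to 156 bases upstream.

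The values are normalized read counts, that is, the authors' estimated counts after DESeq2 normalization, whose depth is unknown. Totals of the samples lay between 92.8% and 104% of their mean. Arid1b itself ranged from 1545 to 1671 in HT-Flx and from 1619 to 2005 in HT-Veh, against 1902 to 2433 in WT-Flx and 1787 to 2831 in WT-Veh, so the vehicle groups overlap. The 8 markers of cortical projection neurons summed to between 43467 and 63765 in every sample, whereas olfactory bulb markers varied widely. The mean log2 value of 10 bulb markers was 9.84 in WT-Veh replicate 1, 9.46, 8.16 and 7.58 in WT-Flx replicates 4, 2 and 1, and 8.06 in HT-Veh replicate 4. It lay between 4.43 and 5.51 in the other 11 samples, which include all 4 HT-Flx mice. Where leaving out such libraries turned the direction of a gene or moved its value by over 1.5 times, the main cases are given beside the result.

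All 9 genes had values above the filter in every mouse of the adult cortex, at low to intermediate levels. Their means over the 16 mice lay above those of 26.1% (Bst2) to 46.4% (Ifit3) of all genes in the table. Per kilobase of exon, Ifit3 had the highest level, with a mean normalized read count of 176 per kb and a range of 126 to 214. It exceeded Igtp, at 79.6 per kb (58.3 to 106), in 16 of 16 mice, and these ranges do not overlap. Bst2 followed at 62.0 per kb, then Gbp3 at 45.2, Gbp2 at 44.6, Irgm1 at 40.8, Gbp7 at 36.1, Ifit1 at 30.2 and Gvin1 at 23.5 per kb. Every pair of neighbours below Ifit3 had overlapping ranges, and Gbp3 was above Gbp2 in only 7 of 16 mice. The order of neighbours among these 8 is thus not resolved by their spread. Genes farther apart can be resolved. The range of Igtp lay above those of Gbp2 (33.4 to 56.9), Irgm1 (34.9 to 55.4), Gbp7 (23.8 to 47.0), Ifit1 (20.2 to 41.1) and Gvin1 (7.25 to 36.5). Lengths were those of all exons of a gene in GENCODE for GRCm38, which for genes with near-identical copies includes sequence whose reads cannot be assigned to 1 gene.

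**Figure D2:**
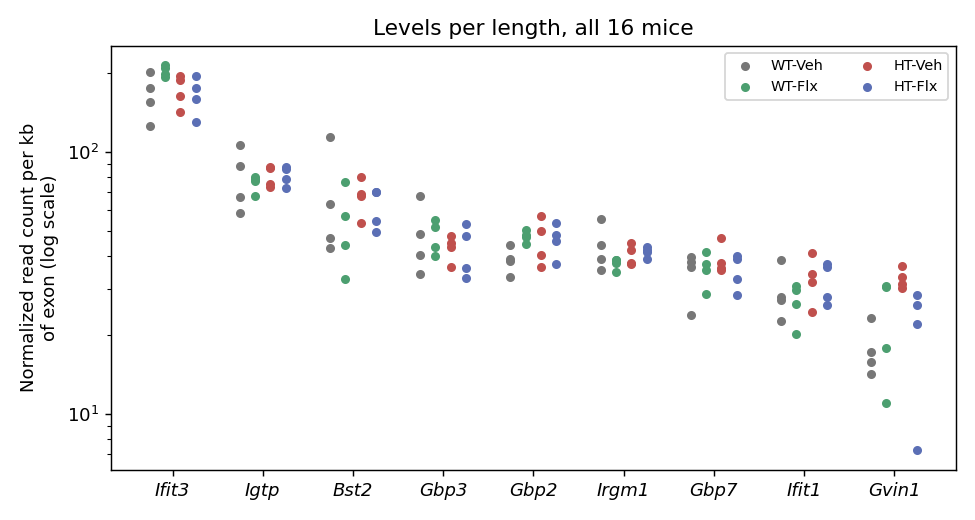
Normalized read count per kb of exon (log scale) of each gene in all 16 mice, with 1 point per mouse coloured by group and genes in order of their mean. Ifit3 lies above every other mean at 176 per kb, and Gvin1 at 23.5 per kb has the widest relative spread, from 7.25 to 36.5.

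The genes differed in how much they varied between mice. The coefficient of variation within groups, averaged over the 4 groups, was 29.9% for Gvin1 and 29.6% for Bst2, and between 9.68% (Irgm1) and 20.1% (Ifit1) for the other 7. The highest mouse exceeded the lowest 5.03-fold for Gvin1 and 3.48-fold for Bst2, but 1.59-fold for Irgm1 and at most 2.05-fold for the rest. WT-Veh replicate 1, the mouse with the highest bulb score, had the highest value of its group for Gbp3, Irgm1, Igtp, Ifit1, Ifit3 and Bst2 and the lowest for Gvin1 and Gbp7. Bst2 read 103 in that mouse, against 42.5, 38.9 and 56.9 in the other 3 of its group.

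Gbp3, Gbp7, Igtp and Ifit1 stayed in similar ranges throughout, and no 2 groups of any of these 4 genes were free of overlap in the comparisons made. Gbp3 (chr3:142560026-142573209, plus strand) had means ± SD (n = 4) of 156 ± 47.7 and 155 ± 22.4 in WT mice on vehicle and fluoxetine, and of 141 ± 15.3 and 138 ± 30.5 in HT mice on vehicle and fluoxetine. Gbp7 (chr3:142530342-142550149, plus strand), its neighbour in the Gbp cluster, had means of 193, 201, 219 and 197 in the same order, over ranges of 134 to 222, 161 to 233, 199 to 264 and 160 to 225. For both genes the group means differed by less than the SD of WT-Veh, their most variable group. Igtp (chr11:58199556-58207591, plus strand) had means of 162 ± 43.0, 154 ± 11.4, 164 ± 14.7 and 164 ± 13.9. It overlaps Irgm2 on the same strand and shares 15.9% of its distinct 31-base stretches (words) with it, so reads of this stretch cannot be told apart between them. Ifit1 (chr19:34640871-34650009, plus strand) had means of 77.5 ± 18.4, 71.1 ± 12.7, 87.4 ± 18.1 and 84.9 ± 15.4. The share of words found in other genes was 14.7% for Gbp7, 10.5% for Ifit1, 5.64% for Gbp3, 4.85% for Gbp2 and 2.20% for Irgm1, and Bst2 shared none.

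**Figure D3:**
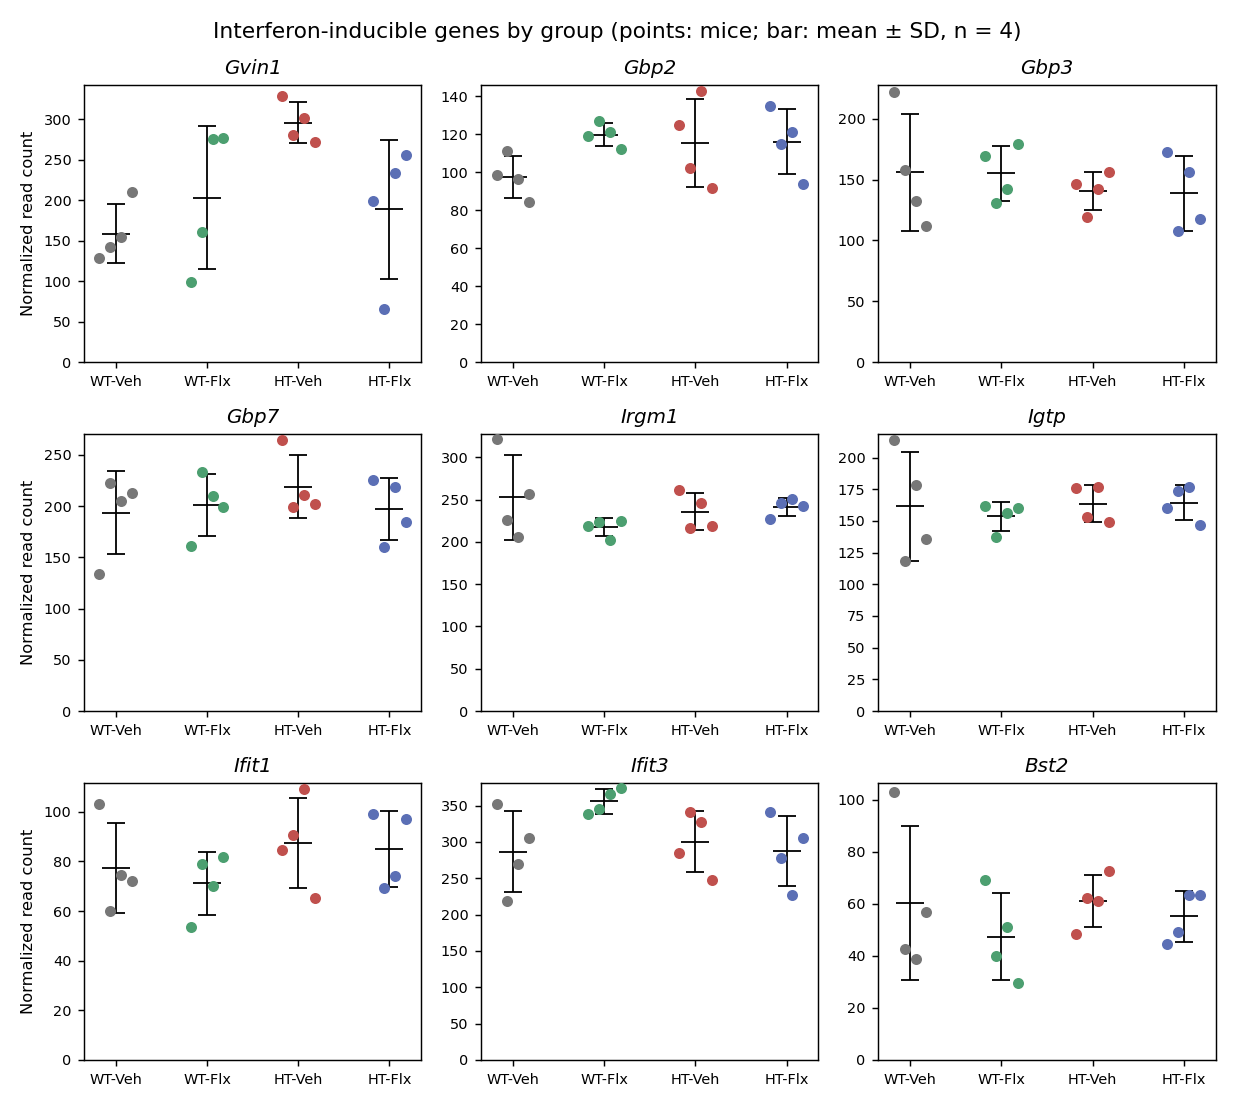
Normalized read count of the 9 genes by group, with 1 point per mouse and bars for the mean ± SD (n = 4). Gvin1 in HT-Veh (272 to 329) lies above all WT-Veh mice (128 to 210), and the other 8 genes have overlapping HT-Veh and WT-Veh groups.

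Gvin1 (chr7:106156556-106215326, minus strand, GRCm38) had the largest difference between HT-Veh and WT-Veh mice among the 9 genes, the comparison on which it was picked. Its normalized read counts in replicates 1 to 4 were 128, 142, 155 and 210 in WT-Veh and 329, 281, 301 and 272 in HT-Veh. Every HT-Veh mouse lay above every WT-Veh mouse, and the mean ± SD (n = 4) was 296 ± 24.9 against 159 ± 36.0. The log2 difference was 0.92, and it was 0.86 without 4 libraries with raised bulb markers (WT-Veh 1, WT-Flx 1 and 4, and HT-Veh 4). These 4 do not include WT-Flx replicate 2, whose bulb score was 8.16. In the fluoxetine groups the values were 99.0, 161, 275 and 277 in WT-Flx and 199, 65.3, 234 and 256 in HT-Flx. These groups overlap over most of their range, and each holds 1 low mouse. The difference between HT-Flx and WT-Flx, which rests on mice that had no part in the choice of Gvin1, was -0.16 (SE 0.43, 95% interval -1.08 to 0.77; limma, adjusted p = 0.920). The interval includes 0 and is wide. The estimate turned to 0.29 without HT-Flx replicate 2, and it was -0.46 without WT-Flx replicate 1 and -0.72 without the 5 libraries with raised bulb markers, which leaves 1 WT-Flx mouse.

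Little of the Gvin1 sequence is its own. Of its 9005 distinct words of 31 bases, 99.7% occur in another gene, and 99.0% occur in Gm4070, a neighbouring protein-coding gene at chr7:105895139-105953967 on the same strand. Gm4070 had normalized read counts of 124, 213, 211 and 278 in WT-Veh and 216, 169, 479 and 189 in HT-Veh. Of the HT-Veh values, 3 lay within the WT-Veh range and that of replicate 3 lay above it. Gvin1 took between 22.5% and 72.6% of the sum of both genes in single mice, so the split between them was not stable. The sum of both was 252 to 488 in WT-Veh and 450 to 780 in HT-Veh, and these ranges overlap. Gm8979, Gm8989 and 9130208D14Rik share 34.0%, 32.2% and 22.1% of the words of Gvin1, but had no values and enter no sum. With Gm1966 and Gm8995, which share 14.4% and 12.9% of these words, the sum was 349 to 563 in WT-Veh and 589 to 935 in HT-Veh. These do not overlap. On this summed value, an alternative chosen after seeing the data, the log2 difference of HT-Veh and WT-Veh was 0.56 in place of 0.92, and that of HT-Flx and WT-Flx was 0.09 in place of -0.16.

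**Figure D4:**
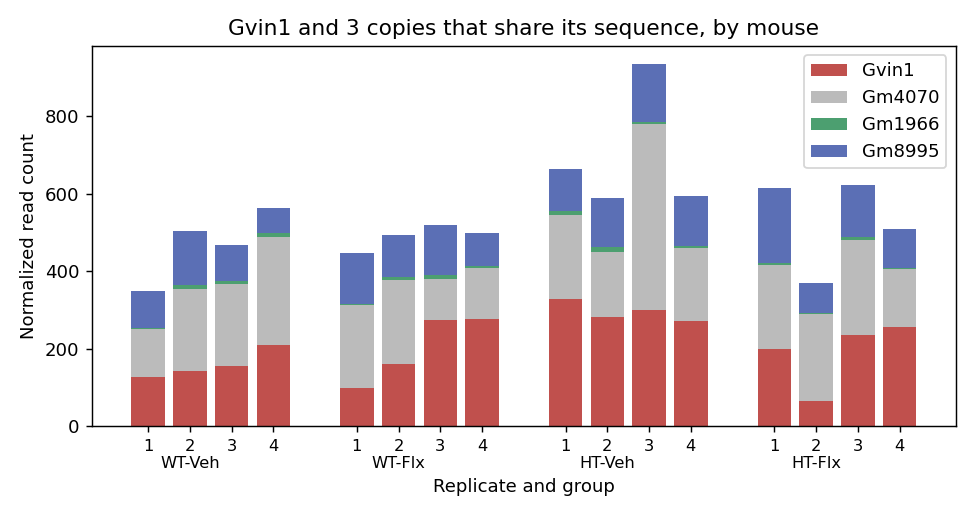
Normalized read counts of Gvin1 and of 3 genes that share its sequence (Gm4070, Gm1966 and Gm8995), stacked for each of the 16 mice. The stacks of HT-Veh reach 589 to 935 against 349 to 563 in WT-Veh, and the division between Gvin1 and Gm4070 changes from mouse to mouse.

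The other 8 genes differed less between HT-Veh and WT-Veh. With Gvin1, 7 of the 9 were higher in HT-Veh and 2, Gbp3 and Irgm1, were lower, with a median log2 difference of 0.11 (range -0.11 to 0.92) against 0.01 over all genes. Gbp2 was at 0.23, Gbp7 at 0.20 and Ifit1 at 0.18, and without the 4 libraries they were at 0.34, 0.06 and 0.45. Gvin1 was the 1 gene of the 9 whose groups did not overlap, where 3.84% of 16832 genes had such groups, and nothing is read from this count since the comparison was used in the choice. Both exceptions turned without WT-Veh replicate 1 (Gbp3 0.08 and Irgm1 0.04) and without the 4 libraries (0.03 and 0.07), where 9 of 9 genes were higher in HT-Veh and the median was 0.27. Without WT-Veh replicate 2, Igtp (-0.09), Ifit3 (-0.05) and Bst2 (-0.01) were in turn below 0. Of the microglia markers, 8 of 10 were higher in HT-Veh, with a summed level of 12528 to 14980 against 11642 to 12914 in WT-Veh. Among border macrophage markers, 6 of 6 were higher (361 to 514 against 334 to 391). So were 5 of 6 mural cell markers (6564 to 8537 against 6426 to 6781), with a median log2 difference of 0.20 and 1 gene without overlap, whereas 0 of 7 oligodendrocyte markers were higher (69875 to 98267 against 63138 to 110271, median -0.12). Endothelial markers were higher for 7 of 10, astrocyte markers for 6 of 8 and cortical projection neuron markers for 5 of 8. Meningeal fibroblast markers were higher for 3 of 6 and bulb markers for 1 of 7. No marker of these lists was at 0 in every sample, and their part in the differences was not tested. In tissue of mixed cells, fewer cells of a type and less RNA per cell cannot be told apart.

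Comparison of HT-Flx with WT-Flx asks whether genotype matters for these genes after early fluoxetine. None of the 9 genes passed an adjusted p of 0.05 in limma, with 7 of 16788 genes passing in all (0.0417%). At an unadjusted p under 0.05, 1 of the 9 passed, as did 1754 of all genes. Of the 9, 4 were higher and 5 lower in HT-Flx, with a median log2 difference of -0.03 (range -0.32 to 0.26), against 0.01 over all genes. Groups did not overlap for 1 gene, Irgm1, where 5.83% of all genes had such groups.

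Ifit3 (chr19:34583531-34588731, plus strand) had the largest estimate in that comparison. It read 338, 346, 366 and 374 in WT-Flx and 341, 278, 227 and 306 in HT-Flx. The WT-Flx values were tightly grouped and 3 of the 4 HT-Flx mice lay below all of them. The log2 difference was -0.32 (SE 0.14, 95% interval -0.625 to -0.0117; adjusted p = 0.464 over all genes in limma), which did not pass the test. Ifit3 shares 61.8% of its words with Ifit3b, a nearby copy, and with both summed the difference was -0.22.

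Irgm1 (chr11:48861968-48871683, minus strand) was the gene without overlap. Its values were 219, 224, 202 and 225 in WT-Flx and 227, 246, 251 and 242 in HT-Flx. The lowest HT-Flx mouse and the highest WT-Flx mouse are close, and the log2 difference was 0.15 (SE 0.12, 95% interval -0.12 to 0.42; adjusted p = 0.679 in limma). Bst2 (chr8:71534255-71537456, minus strand) read 69.1, 39.9, 51.2 and 29.6 in WT-Flx and 44.6, 49.3, 63.4 and 63.5 in HT-Flx. These groups overlap, and its estimate of 0.26 (SE 0.28) became -0.28 when the bulb score was added as a covariate. Ifit1 was at 0.25, Gbp3 at -0.18, Igtp at 0.09, Gbp2 at -0.06 and Gbp7 at -0.03, and adjusted p-values of these 5 in limma were 0.691 or higher. Gbp3 was at -0.01 without the 4 libraries and at -0.07 without HT-Flx replicate 2, and Gbp7 at -0.18 without the 4 libraries. All 9 olfactory bulb markers that passed the filter were lower in HT-Flx than in WT-Flx, with a median log2 difference of -2.69, and the groups of 4 of them did not overlap. With the bulb score as a covariate, Ifit3 was at -0.24 (SE 0.24), Irgm1 at 0.24 (SE 0.21) and Gvin1 at -0.33 (SE 0.72). No gene of the 9 passed, nor did any other gene. The bulb score was 4.43 to 5.24 in HT-Flx and 5.51 to 9.46 in WT-Flx. Since these do not overlap, this fit can hardly separate the score from the group, and nothing is read from the lack of calls.

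**Figure D5:**
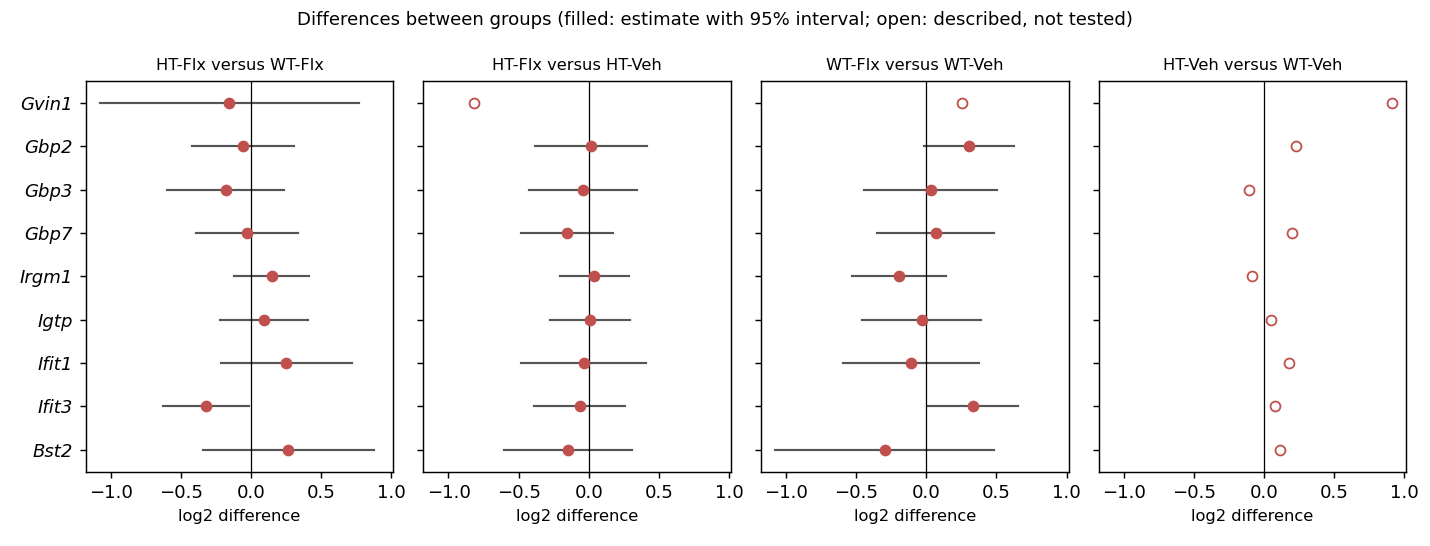
Log2 differences of the 9 genes in 4 comparisons, with filled points for the limma estimate and lines for its 95% interval, and open points for values given as a description without a test. Every interval includes 0 except those of Ifit3 in HT-Flx versus WT-Flx (-0.625 to -0.0117) and in WT-Flx versus WT-Veh (0.00371 to 0.655), neither of which passed after adjustment.

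Effects of early fluoxetine were compared within each genotype at postnatal day 120, long after the drug was withdrawn. In WT mice none of the 8 genes open to a test passed in limma, nor did any of 16833 genes (0%), and at an unadjusted p under 0.05 the numbers were 1 and 707. Ifit3 was at 0.33 (SE 0.15, 95% interval 0.00371 to 0.655; adjusted p = 1.00), with values of 352, 219, 270 and 306 in WT-Veh against 338 to 374 in WT-Flx. Only the highest WT-Veh mouse reached the WT-Flx range. Gbp2 (chr3:142620602-142638008, plus strand), a GTPase that coats pathogen vacuoles, was the 1 gene whose groups did not overlap, where 2.89% of all genes had such groups. It read 98.5, 111, 96.4 and 84.1 in WT-Veh and 119, 127, 121 and 112 in WT-Flx. All treated mice lay above all vehicle mice, by a narrow gap, and the log2 difference was 0.30 (SE 0.15, 95% interval -0.02 to 0.62; adjusted p = 1.00). Bst2 was at -0.30 (SE 0.35) and Irgm1 at -0.19 (SE 0.15). The remaining 4 tested genes lay between -0.11 and 0.07. Gvin1 was at 0.26, described only, and at 0.72 without the 5 libraries and 0.08 with the copies summed. All 10 bulb markers were higher in WT-Flx, with a median log2 difference of 1.35. Bst2 rested on WT-Veh replicate 1, the mouse at 103: it was at -0.01 without that mouse or without the 4 libraries, and at 0.17 without the 5 libraries. Without that mouse, Irgm1 was at -0.07, Gbp3 was at 0.22 in place of 0.03, Igtp at 0.11 in place of -0.03, Ifit3 at 0.43 in place of 0.33 and Gbp2 at 0.31 in place of 0.30.

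In HT mice none of the 8 tested genes passed in limma, nor did any of 16814 genes (0%), and the numbers at an unadjusted p under 0.05 were 0 and 516. The estimates of Gbp2, Gbp3, Irgm1, Igtp, Ifit1 and Ifit3 all lay between -0.06 and 0.04, with 95% intervals that reached at most -0.48 on one side and 0.42 on the other. Gbp7 was at -0.16 (95% interval -0.48 to 0.17) and Bst2 at -0.15 (-0.60 to 0.31). Gvin1 was lower in HT-Flx, at 65.3 to 256, than in HT-Veh, at 272 to 329. It was the 1 gene of the 9 without overlap, against 1.99% of all genes, and its log2 difference was -0.82. This value shares the HT-Veh mice with the comparison on which Gvin1 was picked and is therefore not a test. It was -0.37 without HT-Flx replicate 2 and -0.40 with the copies summed.

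The difference between the genotypes in the fluoxetine effect was tested as an interaction over all 16 mice. None of the 8 tested genes passed in limma, nor did any of 17567 genes (0%), with 0 and 754 at an unadjusted p under 0.05. Ifit3 had the largest tested value, -0.39 (SE 0.21, 95% interval -0.845 to 0.0566; adjusted p = 0.998), from 0.33 in WT and -0.06 in HT, and was at -0.59 without the 4 libraries and -0.63 without the 5. Gbp2 was at -0.28, Gbp7 at -0.225 and Irgm1 at 0.23. Igtp, Ifit1 and Gbp3 were within 0.08 of 0 and Bst2 was at 0.15 (95% interval -0.73 to 1.03). Bst2 was at -0.05 without the 4 libraries and -0.14 without WT-Veh replicate 1, and Irgm1 at 0.10 and 0.11. Gvin1 was at -1.07 by description, from 0.26 in WT and -0.82 in HT. It was at -0.62 without HT-Flx replicate 2, -0.47 with the copies summed and -1.57 without the 5 libraries.

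The genes around these 9 in the pathway were examined from fixed lists, and no gene of any list passed the adjusted threshold in limma in HT-Flx versus WT-Flx, in either fluoxetine comparison or in the interaction. The table listed 0 of 7 interferon genes, the ligands themselves (Ifnb1, Ifng, Ifna2, Ifna4, Ifnk, Ifnl2 and Ifnl3). It listed 18 of 19 receptors and signalling genes, with a median log2 difference of 0.14 in HT-Flx versus WT-Flx and 1 gene at an unadjusted p under 0.05. Irf7, the transcription factor that amplifies type I interferon production, was at 0.47 (SE 0.21, adjusted p = 0.470) and the receptor subunit Ifnar1 at 0.19 (SE 0.09, adjusted p = 0.495). Of the nucleic acid sensors, 10 of 11 were listed, with a median of -0.07. Tmem173 (STING), the adaptor for cytosolic DNA sensing, was at -0.62 (SE 0.25, adjusted p = 0.430), with means of 119 in WT-Flx and 79.3 in HT-Flx. Ddx58 (RIG-I), a sensor of viral RNA, was at -0.35 (SE 0.19, adjusted p = 0.513). In the interaction these sensors were at -0.85 (SE 0.30) and -0.60 (SE 0.22), both with an adjusted p of 0.998.

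Other interferon-induced GTPases were listed for 14 of 16 genes, 13 of which passed the filter, with a median of 0.17 in HT-Flx versus WT-Flx. Gbp4, a further guanylate-binding protein, was at 0.76 (SE 0.33, adjusted p = 0.454) and Tgtp2, an immunity-related GTPase, at 0.71 (SE 0.32, adjusted p = 0.478). For both, HT-Flx replicate 1 was the highest mouse of its group. It read 222 for Gbp4, against 91.6, 167 and 72.0 in the others, and 165 for Tgtp2, against 76.1, 55.7 and 58.4. Between the vehicle groups, where list genes are likewise given as a description, Gbp4 was at 0.41 and Tgtp2 at 0.96. Tgtp1, near Tgtp2 on chromosome 11, went the other way, with means of 39.7 in WT-Veh and 28.4 in HT-Veh. In the fluoxetine groups it went the same way as Tgtp2, with means of 24.8 in WT-Flx and 33.5 in HT-Flx. Sequence shared between Tgtp1 and Tgtp2 was not counted. Of the GTPases, 10 of 12 were higher in HT-Veh, with a median of 0.13 against 0.01 over all genes. This list includes Gm4070, which shares 99.0% of the words of Gvin1, so the count is not independent of the choice of Gvin1. The vehicle comparison was not particular to GTPases: 26 of 32 other interferon-stimulated genes (median 0.11) and 8 of 10 nucleic acid sensors (0.09) were higher in HT-Veh. So were 12 of 18 receptors and signalling genes (0.03) and 8 of 15 antigen presentation genes (0.01). The other interferon-stimulated genes were listed for 35 of 36, with a median of -0.10 in HT-Flx versus WT-Flx over 32 that passed the filter. Adar, which edits double-stranded RNA, was at 0.30 (SE 0.09, adjusted p = 0.344) and Herc6, an ISG15 ligase, at 0.51 (SE 0.18, adjusted p = 0.381). Antigen presentation genes had a median of -0.04 over 15 genes in HT-Flx versus WT-Flx. B2m, the light chain of MHC class I, was at -0.19 (SE 0.09, adjusted p = 0.469) and the peptide transporter Tap2 at -0.31 (SE 0.19, adjusted p = 0.572). The ISRE letters were found in 5 of 6 other GTPases and 13 of 30 other interferon-stimulated genes with a promoter window. They were found in 2 of 7 nucleic acid sensors, 3 of 17 receptors and signalling genes and 2 of 11 antigen presentation genes. Over all genes the share was 3.99%.

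Of the other cell types examined, endothelial markers summed to 8150 to 11436 and microglia markers to 11466 to 14980 over all mice, with every marker of both lists in the table. Of 8 lymphocyte markers 2 were listed, Cd4 and Cd79a. In HT-Flx versus WT-Flx the median of the microglia markers was 0.01 and that of the endothelial markers -0.01, with 5 of 10 higher in each. Oligodendrocyte markers were at a median of -0.17, with 0 of 7 higher and 1 at an unadjusted p under 0.05, and meningeal fibroblast markers at -0.13, with 1 of 6 higher. Mural cell markers were at 0.02 (4 of 6 higher), astrocyte markers at 0.02 (6 of 8), border macrophage markers at 0.07 (3 of 5) and cortical projection neuron markers at 0.16 (5 of 8). No marker of these lists passed the adjusted threshold in limma, and their part in the results was not tested.

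The 9 genes did not form a tight block across mice. Of the 36 pairs, 24 had a Pearson r above 0 over 16 mice, with a median of 0.15 (range -0.56 to 0.61), and no pair had an adjusted p under 0.05 (100000 permutations, two-sided, Benjamini-Hochberg over the 36 pairs). By Pearson r over the 16 mice, the strongest pair was Gvin1 and Gbp7, with r = 0.61 (permutation p = 0.0141, adjusted 0.434) and Spearman rho = 0.33 (permutation p = 0.218, adjusted 0.888). It fell to r = 0.39 without the 2 mice farthest from the median of Gvin1 and was 0.57 without the 4 libraries. The median over pairs was 0.20 for deviations from the group means and 0.13 without the 4 libraries. By these deviations, which were not tested, the highest pair was Ifit1 and Ifit3 (0.792) and the lowest Gbp7 and Bst2 (-0.685). Gvin1 and Gbp7 were then at 0.546. The highest rho was that of Gbp2 and Gbp7, at 0.474.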

How the data were processed

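The study prepared stranded poly-A libraries, sequenced as paired ends and quantified with Salmon 1.1.0 on the GRCm38 transcriptome with GC bias correction, summarised by tximport and normalized in DESeq2 1.30.1 (R 4.1.1 in the submitters' processing notes). The deposited signal is thus a normalized read count per gene. It is not whole, so depth is unknown and no counting interval is given. Groups and replicate numbers came from sample titles. With 1 sample per mouse and litter not given, p-values measure the spread between these mice. All 16 columns were used. No column was identical to another.

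Values were tested with limma 3.58.1 (R 4.3.3, eBayes with trend) on log2(value + 1), which understates the change of low genes, over genes at 10 or more in at least 4 samples of the fit, with only the compared groups in the fit and all 16 mice for the interaction. P-values were two-sided, adjusted by Benjamini-Hochberg over all genes, threshold 0.05. The method was tested on simulated data. HT-Veh versus WT-Veh was not tested, and Gvin1 was tested only in HT-Flx versus WT-Flx. The 9 genes, the pathway and marker lists, and the 4 libraries left out together were chosen with earlier results of these data known. From each pathway list the text names genes past the threshold or otherwise the 2 with the smallest p in HT-Flx versus WT-Flx, and the 5 genes most correlated with the mean of the 9. Tgtp1, named beside Tgtp2, is outside this rule, as are genes named for sequence shared with the 9. Lymphocyte markers were named as a count of 2. Same-numbered mice were checked for pairing: correlations of their deviations ran from -0.225 to 0.310 and were not above 0.1 in every pair, so the numbers were not taken to pair mice. Sequence sharing was counted as distinct 31-base words in GENCODE transcripts for GRCm38. Correlations used Python 3.11.15 with scipy 1.17.1. Alternatives were other pseudocounts (0.1 and 8), filters and scalings, all 4 groups in one fit, a replicate block, a bulb score covariate and mice left out, and 2 added after seeing the data: copies summed, and WT-Flx replicate 2 left out with the 4 libraries.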

Additional observations from a re-analysis of the deposited data

How the results depend on the processing

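None of the tested genes passed an adjusted p of 0.05 in any comparison under any of the 12 alternatives or with any single mouse left out. Over all genes, calls in HT-Flx versus WT-Flx were 7 as reported, 4 with a pseudocount of 0.1, quantile normalization or all 4 groups in one fit, 5 with the replicate block, 2 without 5 libraries, 0 with a mean of at least 100, the bulb covariate or 4 libraries out, and 0 to 23 with a single mouse out (23 without WT-Flx replicate 3). In WT-Flx versus WT-Veh such calls were 0 as reported, 25 without 4 libraries, 9 without 5, 4 without WT-Veh replicate 1 and 1 with the bulb covariate, and in the interaction 0 as reported and 2 without 5 libraries. Same-numbered mice share only a number: under the replicate block the members called stayed at 0, Gvin1 in HT-Flx versus WT-Flx at -0.158 and Ifit3 at -0.318.

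Medians over the 9 genes moved by more than the spread between mice (0.132) as follows. With a mouse out, the lowest and highest medians are both given, although those at 0.112 and -0.187 moved by less. In WT-Flx versus WT-Veh the median was -0.149 with the bulb covariate and -0.103 (without WT-Veh replicate 4) to 0.112 (without WT-Veh replicate 1) with a mouse out. In HT-Veh versus WT-Veh it was 0.269 without 4 and without 5 libraries. The median interaction was -0.225 with a mean of at least 100 (7 genes left), 0.161 with the bulb covariate, -0.246 without 4 libraries, and -0.187 to 0.07 with a mouse out. The cause was not tested.

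Single estimates changed sign, none of them called. Most were near 0, but Bst2 was at 0.264 in HT-Flx versus WT-Flx and at -0.297 in WT-Flx versus WT-Veh. With the bulb covariate, these were Bst2 in HT-Flx versus WT-Flx (-0.277), Gbp2 and Igtp in HT-Flx versus HT-Veh (-0.0827 and -0.0403), and Gbp3 in the interaction (0.163) and in WT-Flx versus WT-Veh (-0.149). With upper quartile rescaling, they were Gbp2 and Igtp in HT-Flx versus HT-Veh (-0.00125 and -0.0126). Without 4 libraries, they were Gbp3 and Irgm1 in HT-Veh versus WT-Veh (0.0266 and 0.0725, untested), Gbp2, Gbp3 and Igtp in HT-Flx versus HT-Veh (-0.0848, 0.00836 and -0.0364), Igtp and Ifit1 in WT-Flx versus WT-Veh (0.0441 and 0.114), and Igtp, Ifit1 and Bst2 in the interaction (-0.0805, -0.282 and -0.0519). Without 5 libraries, the same values in HT-Veh versus WT-Veh and HT-Flx versus HT-Veh, whose samples do not change, were joined by Gbp7, Igtp, Ifit1 and Bst2 in WT-Flx versus WT-Veh (-0.0193, 0.138, 0.0266 and 0.167) and Igtp, Ifit1 and Bst2 in the interaction (-0.174, -0.194 and -0.227); WT-Flx then holds 1 mouse, assumed to vary like the other groups. With copies summed, Gvin1 in HT-Flx versus WT-Flx (0.0851), Ifit3 in HT-Flx versus HT-Veh (0.00712) and Igtp in WT-Flx versus WT-Veh (0.00411) turned.

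With 1 mouse left out, estimates that changed sign had these ranges. In HT-Flx versus WT-Flx they were Gbp7 -0.13 to 0.067, Gvin1 -0.46 to 0.29 and Gbp2 -0.132 to 0.0424. In HT-Flx versus HT-Veh they were Gbp2 -0.0848 to 0.128, Irgm1 -0.00113 to 0.0916, Igtp -0.0364 to 0.0592, Ifit1 -0.167 to 0.0767, Gbp3 -0.156 to 0.0666 and Ifit3 -0.153 to 0.0436. In WT-Flx versus WT-Veh they were Gbp7 -0.0994 to 0.169, Igtp -0.173 to 0.112, Ifit1 -0.226 to 0.0338 and Gbp3 -0.112 to 0.215. In the interaction they were Igtp -0.106 to 0.179, Ifit1 -0.0704 to 0.189, Bst2 -0.139 to 0.351 and Gbp3 -0.257 to 0.07. In HT-Veh versus WT-Veh they were Gbp3 -0.25 to 0.0769, Irgm1 -0.177 to 0.0383, Igtp -0.0862 to 0.198, Ifit3 -0.0457 to 0.181 and Bst2 -0.0568 to 0.404. Depth limits could not be set, since the values hold no counts.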

Other observations

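The genes whose values followed the 9 most closely over the 16 mice belonged to none of the pathway lists. Among 17558 other genes, the 5 with the highest Pearson correlation with the mean log2 value of the 9 were Pctp, a phosphatidylcholine transfer protein (r = 0.848, rho = 0.826), Zfp820 (r = 0.836, rho = 0.682), Lrp5, a Wnt co-receptor (r = 0.833, rho = 0.897), Mpzl2 (r = 0.810, rho = 0.844) and Cytl1 (r = 0.805, rho = 0.721). Without the 2 mice farthest from the median of that mean, r was 0.661 to 0.855, and without the 4 libraries it was 0.773 to 0.874. They are the top of a search through all genes and have no test, and they share libraries with the 9. The mean log2 value itself was lowest in HT-Flx replicate 2 (6.92) and highest in HT-Veh replicate 3 (7.42), with WT-Veh replicate 1 at 7.39.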
